A study of Mus musculus with 6 samples.

Results

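Long intergenic non-coding RNAs (lincRNAs) were measured in mouse hearts with 16251 array probes, 29.2% of the 55681 probes other than controls. The members were all such probes whose design name carries the lincRNA prefix of the Agilent array, and each reads 1 stretch of 60 bases. Male C57BL/6 mice entered the study at 4 weeks of age. For 4 months 3 of them ate a standard chow (normal diet, ND) and 3 a high-fat diet (HFD) with 60% of its kcal from fat. Total RNA of each heart was read in 1 colour (Cy3) on 1 array, and a single slide carried the 6 arrays. Its row 1 held the arrays of HFD 1 and HFD 2, and its row 2 the remaining 4. No strain difference, transgene or drug separated the diets, and 7 of 7 heart muscle marker genes were well above background on all 6 arrays.

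LincRNAs are transcripts without a known protein product whose genes lie between coding genes. Many are spliced and polyadenylated like mRNAs, and as a class they are known for low and tissue-restricted expression. Some act in the nucleus, as scaffolds of nuclear bodies or as guides of chromatin proteins, and others are transcribed near genes that they repress in cis.

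The array names a lincRNA probe by the region it came from, given as coordinates on mouse build mm9 with F or R for the strand. The probes covered 3555 regions, of which 2488 had probes of 1 strand and 1067 of both, so that 4622 combinations of region and strand were read. Many of these overlap on the same strand, and joining the overlaps left 3370. The median number of probes per region and strand was 3 (1 to 10), and the median region spanned 7328 bases (quartiles 794 and 21818). A position was given for 16133 probes, each on the strand of its region, and 118 had none. Names of long non-coding RNA genes in place of coordinates stood on 57 probes of 12 genes. Probes of 1 region share a target and are not replicates of a condition. Whether a probe lies in an exon, intron or UTR was not analysed here.

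The following probes carry the results described below, read 5′ to 3′ from the array files. The first 3 lie at NEAT1 on chromosome 19. The first is a NEAT1 probe with a match to AATAAA, the hexamer of polyadenylation signals, in capitals. The others are the brightest NEAT1 probe and the probe with the largest difference on the other strand.
A_30_P01020135, chr19:5842594-5842653, minus strand: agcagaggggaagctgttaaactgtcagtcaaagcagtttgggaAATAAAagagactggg
A_30_P01025798, chr19:5842726-5842785, minus strand: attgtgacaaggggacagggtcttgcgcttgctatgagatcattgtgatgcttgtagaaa
A_30_P01022465, chr19:5843984-5844043, plus strand: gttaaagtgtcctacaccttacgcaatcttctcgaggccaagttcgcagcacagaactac

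A pair of probes from overlapping regions on chromosome 10 is shown because the region held the most probes that differed together outside NEAT1. Capitals mark the 49 bases that the probes share.
A_30_P01032544, chr10:69682342-69682401, plus strand: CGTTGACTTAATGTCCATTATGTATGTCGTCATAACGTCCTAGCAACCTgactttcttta
A_30_P01029918, chr10:69682331-69682390, plus strand: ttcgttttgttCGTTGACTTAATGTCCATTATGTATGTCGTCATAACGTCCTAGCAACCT

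The next pair on chromosome 6 abuts base to base on 1 strand, and its probes differed between the diets in opposite directions.
A_30_P01030333, chr6:134845910-134845969, plus strand: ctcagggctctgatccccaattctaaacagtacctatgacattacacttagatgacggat
A_30_P01027725, chr6:134845970-134846029, plus strand: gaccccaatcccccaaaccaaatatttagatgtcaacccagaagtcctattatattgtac

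The probe with the lowest p, the largest fitted increase, and the largest decrease in a region whose probes agreed follow. In the last of these, capitals mark a run of 19 bases that occurs 2 times within the probe.
A_30_P01027967, chr17:88905401-88905460, plus strand: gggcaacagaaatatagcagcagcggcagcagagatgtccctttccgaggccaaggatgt
A_30_P01019993, chr19:44651378-44651437, minus strand: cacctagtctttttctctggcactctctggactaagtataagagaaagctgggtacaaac
A_30_P01029305, chr5:22890040-22890099, minus strand: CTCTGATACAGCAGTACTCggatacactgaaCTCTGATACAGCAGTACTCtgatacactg

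The brightest member closes the set.
A_30_P01018056, chr2:168808819-168808878, minus strand: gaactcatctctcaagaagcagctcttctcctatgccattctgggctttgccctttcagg

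Most lincRNA probes were at background in the heart. The scanner software marks a spot as well above background. On all 6 arrays 3972 lincRNA probes (24.4%) were so marked, on none 9278 (57.1%), and on 1 to 5 arrays 3001 (18.5%). Probes of RefSeq mRNAs were above background on all 6 arrays in 65.0% of cases, and probes of RefSeq non-coding transcripts in 40.1%. The share of lincRNA probes above background was 30.1%, 32.4% and 27.9% in the ND hearts, in the order 1 to 3, and 32.4%, 33.6% and 32.3% in the HFD hearts. The HFD hearts were thus higher than all but ND 2, which overlapped them (30.1% ± 2.2 in ND against 32.7% ± 0.71 in HFD, SD, n = 3 each, two-sided exact permutation p = 0.20, where 3 against 3 hearts cannot go below 0.10). The mRNA share was also highest in HFD, at 68.2% ± 1.2 in ND and 69.8% ± 0.50 in HFD (exact permutation p = 0.20, n = 3 each). By region, 2110 of the 4622 combinations of region and strand (45.7%) had at least 1 probe above background on all 6 arrays. Of the 3932 with 2 or more probes, 2006 had none, 341 had every probe and 1585 had some.

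Levels are given as log2 of the intensity relative to the 75th percentile of all spots of the array, so that 0 is the level of that percentile. The brightness of a probe depends on the probe as well as on its transcript, so medians of classes are a description. Among probes above background on all 6 arrays, the median level was -2.13 for lincRNAs and 0.71 for mRNAs. The middle of the lincRNA range ran from -3.22 to -0.38 (quartiles) and that of the mRNAs from -1.44 to 2.86. Levels above 0 were reached by 827 lincRNA probes (20.8%), against 58.5% of the mRNA probes, and 607 lincRNA probes (15.3%) exceeded the mRNA median. When each array used the probes it detected, the lincRNA median lay below the mRNA median by -3.10, -3.20 and -2.99 in the ND hearts. In the HFD hearts the difference was -3.26, -3.28 and -3.24, below every ND heart (exact permutation p = 0.10, n = 3 each, the smallest possible). The sets of detected probes differed between arrays, and over the probes detected on all 6 arrays the difference was -2.82 ± 0.015 in ND and -2.82 ± 0.060 in HFD (SD, n = 3 each, exact permutation p = 0.80).

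**Figure D1:**
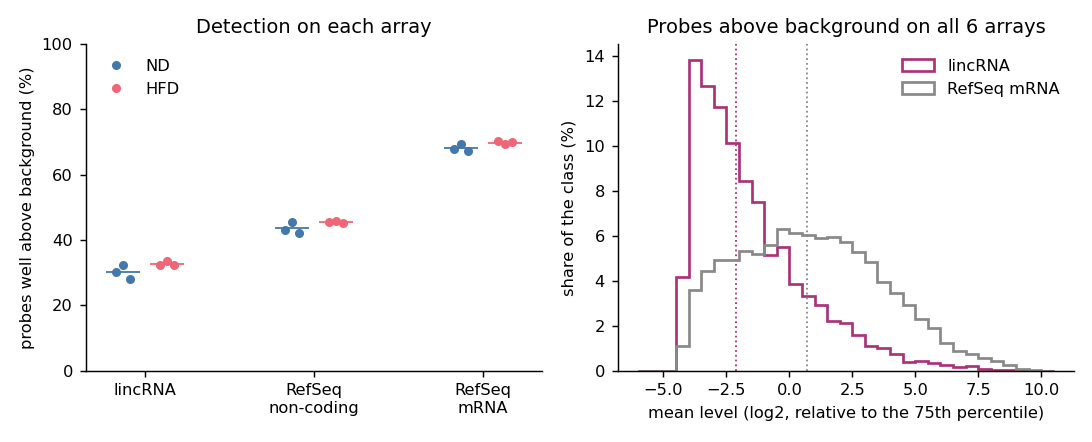
Left, share of probes well above background on each of the 6 arrays (percent, 1 point per heart, line at the mean of the diet) for lincRNA, RefSeq non-coding and RefSeq mRNA probes. Right, distribution of mean levels (log2 relative to the 75th percentile of the array) of probes above background on all 6 arrays, with dotted lines at the medians of -2.13 and 0.71. LincRNA probes were detected at 27.9% to 33.6% and mRNA probes at 67.2% to 70.2%.

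Detection followed the place of a probe relative to coding transcripts, and it did so by strand. Within 1 kb of an mRNA probe on the same strand, 64.9% of 191 lincRNA probes were above background on all 6 arrays. The share was 39.5% of 704 probes at 1 to 5 kb, 24.5% of 2599 at 5 to 20 kb, 25.3% of 6458 at 20 to 100 kb and 20.1% of 6154 beyond. Towards an mRNA probe on the opposite strand it was 18.4% of 267 probes within 1 kb and 20.7% of 834 at 1 to 5 kb, and between 23.5% and 25.6% farther away. The probes within 1 kb on the same strand lay upstream of the mRNA probe in 62 cases (75.8% detected) and downstream in 129 (59.7% detected). A further 27 lincRNA probes shared bases with an mRNA probe on their strand. For the 20 of these detected with their partner on all 6 arrays, the log2 differences between the diets had a Spearman's rho of 0.87 across probes, and the levels one of 0.94. Such pairs read the same transcript in the same hearts.

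**Figure D2:**
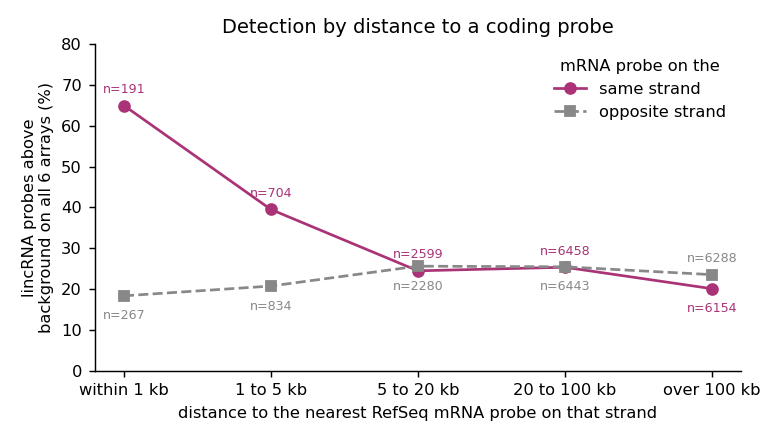
Share of lincRNA probes above background on all 6 arrays (percent) by distance to the nearest RefSeq mRNA probe on the same strand (circles) and on the opposite strand (squares), with the number of probes at each point. The share fell from 64.9% to 20.1% with distance on the same strand and lay between 18.4% and 25.6% on the opposite strand.

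Base composition went with detection too. The share above background on all 6 arrays rose from 18.1% of 2617 lincRNA probes with at most 35% G and C to 54.9% of 758 with over 55%. For mRNA probes it went from 64.3% of 7062 to 78.0% of 127. The hexamer AATAAA, searched on the probe strand, stood in 3.92% of the lincRNA probes and 13.2% of the mRNA probes, and its reverse complement TTTATT in 3.03% and 4.27%. Of lincRNA probes with AATAAA 27.5% were detected on all 6 arrays, against 24.3% of those without. A match is a string of letters, not a site in use.

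The 10 brightest regions exceeded 5.76, the 95th percentile of the mRNA levels, and none of their brightest probes had an unadjusted p below 0.05 between the diets. The brightest member, from the region chr2:168804720-168854970 on the minus strand, had levels of 8.90, 8.94 and 8.94 in ND and 8.81, 8.84 and 8.62 in HFD. The HFD hearts were all below the ND hearts, by -0.17 ± 0.08 (SE, limma adjusted p = 0.501). Next came chr17:17481706-17482457 on the minus strand, with a mean level of 8.28 over the 6 arrays, and chr14:78924115-78938125 on the plus strand, with 8.17. These are levels of the brightest probe of a region, not of all its probes. In the chr2 region 1 of 3 probes was above background on no array, and in the chr14 region 5 of 7. All 3 probes of the chr17 region were above background on all 6 arrays. The brightest probes of the 10 regions ranged from 36.7% to 88.3% G and C. The other 7 of the 10 had means from 7.19 to 7.72. Among them, chr6:83368261-83407280 and chr12:73838608-73862621 contain other probes of the array on the same strand, named B230319C09Rik and 5033425G24Rik.

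Both strands were above background on all 6 arrays in 345 of the 1067 regions probed on both, 1 strand in 459 and neither in 263. Over the 345 regions, the brightest probes of the strands had a Spearman's rho of 0.017, with a median difference in level of 2.38. In the region chr12:73838608-73862621, near the phosphatase gene Ppm1a, the strands stood at 7.53 and 6.77. In the region chr17:39960567-39992817 they stood at 4.08 and 3.69, and probes named Rn18s, the 18S ribosomal RNA, lie inside it on the plus strand. The minus-strand probe of chr5:34696192-34722842 had levels of 2.62, 3.01 and 4.70 in ND and 2.98, 4.83 and 2.45 in HFD. One heart of each diet thus stood well above its other hearts, while the plus-strand probe there ranged only from 5.25 to 5.44. The other regions of the 5 with the brightest dimmer strand were chr14:33923944-34003394, with 4.23 and 3.55, and chr12:119825125-119850750, with 6.17 and 2.53. In chr12:73838608-73862621 and chr5:34696192-34722842 the probes of both strands had over 55% G and C, the composition detected most often. In the rest of the 5 regions at most 1 strand's probe did. Of the 5 probes per strand of chr12:73838608-73862621, 2 on the minus and 3 on the plus strand were above background on no array. Whether base composition or transcription of both strands set these levels was not tested.

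Among the 12 gene names that lincRNA probes carry, NEAT1 was the one whose probes had an unadjusted p below 0.05. NEAT1, the RNA scaffold of the nuclear bodies called paraspeckles, was bright, and its 5 probes on chr19:5842534-5842845 had a mean level of 4.4, 4.41 and 4.74 in ND. In HFD it was 3.58, 3.06 and 3.97. Every HFD heart was below every ND heart, and the mean ND level was 1.97 times that in HFD (4.52 ± 0.19 against 3.54 ± 0.45 on the log2 scale, SD, n = 3 each, exact permutation p = 0.10).

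All 5 NEAT1 probes had an unadjusted p below 0.05, with log2 differences from -1.01 to -0.93, and none passed the adjustment (limma, adjusted p from 0.246 to 0.276). A probe of another design group, annotated Neat1, gave -0.98 ± 0.25 (SE, limma adjusted p = 0.268) with levels of 4.75, 4.81 and 5.16 in ND and 3.91, 3.47 and 4.4 in HFD. It lies at chr19:5842564-5842623, within bases that A_30_P01021631 and A_30_P01020135 already read, so it is not a separate reading. Of the 17 alternative settings, the slide row as a term was the one under which the 5 probes no longer all had a p below 0.05 (unadjusted p from 0.0643 to 0.116). Since row 1 held no ND array, that fit rests on HFD 3 against the 3 ND hearts of row 2, and the NEAT1 difference there was -0.55. Diet and cell makeup cannot be told apart in whole hearts, since fewer cells of a type and less RNA per cell lower a level alike.

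On the other strand of the NEAT1 locus, 12 lincRNA probes within 5 kb of the NEAT1 probes were tested, a window chosen after their values were seen. In HFD 11 of the 12 were lower, and 3 of these had an unadjusted p below 0.05, where 6.36% of all tested probes had such a p and were lower. The lowest p there belonged to A_30_P01022465, which starts 1138 bases beyond the last NEAT1 probe base. Its levels stood at -3.83, -3.79 and -3.38 in ND and -4.72, -4.59 and -4.71 in HFD, with no overlap. It differed by -1.01 ± 0.13 (SE, limma adjusted p = 0.112) and was above background in 2 of 3 HFD hearts, so it entered the test through ND alone. The brightest of the 12, A_30_P01020769 at a mean level of 2.35, differed by 0.10 ± 0.09 (SE, limma adjusted p = 0.720). How far these probes read transcripts of the NEAT1 strand was not tested.

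NEAT2, also called Malat1 and found in nuclear speckles, lies near NEAT1 on the same chromosome. Its 3 probes had mean levels of -0.40, -0.22 and -0.44 in ND and -0.79, -0.18 and -0.38 in HFD, which overlapped (-0.35 ± 0.12 against -0.45 ± 0.31, SD, n = 3 each, exact permutation p = 0.90). TUG1, a broadly expressed RNA first described in the retina, overlapped as well. Its 5 probes averaged 0.41, 0.52 and 0.37 in ND and 0.54, 0.32 and 0.49 in HFD, and no probe differed by more than 0.05 on the log2 scale. Of 3 probes of other design groups annotated Tug1, the brightest differed by 0.04 and A_52_P599162 by 0.26 ± 0.08 (SE, limma adjusted p = 0.321), with no overlap of the diets. The TUG1 probes themselves ranged in mean level from -1.09 to 1.4.

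H19, the imprinted RNA expressed from the maternal allele beside Igf2, varied between hearts more than between diets. Its 5 probes had mean levels of -1.01, -0.50 and 0.65 in ND and 0.83, -0.68 and -0.11 in HFD. ND 3 and HFD 1 were high and ND 1 was low, and this order held from probe to probe. The faintest H19 probe read -2.23, -1.59 and -0.39 in ND and -0.28, -1.82 and -1.17 in HFD, and the brightest 0.71, 1.15 and 2.47 in ND and 2.57, 0.90 and 1.59 in HFD. The diets differed by 0.30 in the mean of the 5 (-0.28 ± 0.85 against 0.01 ± 0.76, SD, n = 3 each, exact permutation p = 0.60).

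The remaining named RNAs were faint or at background. XIST, which coats the inactive X chromosome of females, and its antisense partner TSIX had 5 probes each, none above background on any array of these male mice. HOTAIR, from the HoxC cluster, had 1 tested probe of 5, and lincP21, transcribed beside the cell cycle inhibitor Cdkn1a, had none. NRON, described as a repressor of NFAT transport into the nucleus, had 2 probes on all 6 arrays, with a mean difference of -0.01. KCNQ1ot1, the imprinted antisense transcript of Kcnq1, had 1 such probe, with levels of -1.05, -1.45 and -0.95 in ND and -1.52, -0.94 and -0.88 in HFD. The KCNQ1ot1 probes of this set are on the plus strand, whereas the probes annotated Kcnq1ot1 elsewhere on the array are on the minus strand. The region chr17:012941161-012944859, which contains a probe named Airn, the imprinted antisense transcript of Igf2r, had 5 of 5 probes on all 6 arrays, with differences from -0.26 to 0.23. An Airn probe of another design group, A_51_P418809, differed by 0.34 ± 0.08 (SE, limma adjusted p = 0.254), again with no overlap. Regions chr3:034856791-034869544 and chr6:052032838-052033444 had 3 and 5 probes and none tested. BRN1-A and PINC had 1 tested probe each, with differences of 0.24 ± 0.16 and -0.04 ± 0.26 (SE, limma adjusted p = 0.622 and 0.971).

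Other probes on the array covered 27 of 43 listed genes for long non-coding RNAs, 20 of them above background on all 6 arrays. With the brightest probe of each gene, 2 of the 20 were higher in HFD at an unadjusted p below 0.05, 1 was lower and none passed the adjustment. Over all tested probes 5.37% were higher and 6.36% lower at that p. The median difference was 0.06, against -0.01 over all probes tested. The higher ones were Snhg1, a host of small nucleolar RNAs, by 0.22 ± 0.08 (SE, limma adjusted p = 0.365), and Mirg, from the imprinted cluster that holds Meg3, by 0.93 ± 0.26 (adjusted p = 0.289). Mirg read -3.0, -2.50 and -3.36 in ND and -1.99, -1.71 and -2.36 in HFD. The lower one was Neat1. Meg3 itself, at -0.37, -0.10 and 0.05 in ND and 0.07, -0.52 and -0.15 in HFD, overlapped between the diets.

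**Figure D3:**
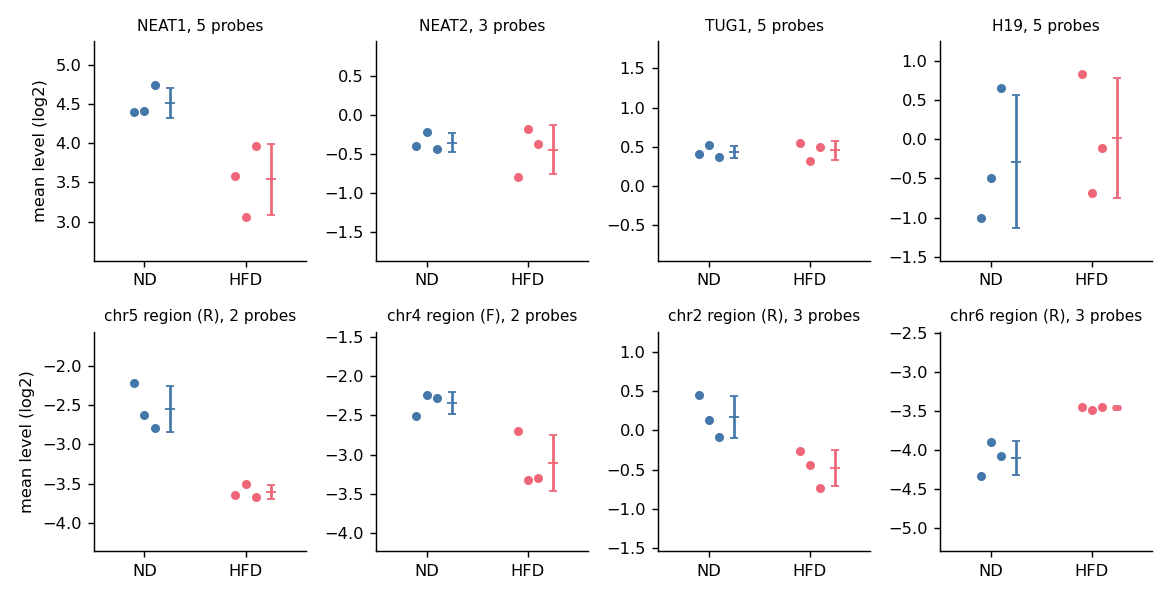
Mean level over the tested probes of a region (log2 relative to the 75th percentile of the array) in each heart, with mean and SD (n = 3) beside the points. Every panel spans the same range of 2.8 on the log2 scale. Top, 4 long non-coding RNA genes. Bottom, 4 regions without a gene name, those with the largest mean differences among regions whose tested probes agreed and of which at least 2 were above background on all 6 arrays. NEAT1 and the lower panels show no overlap of the diets, while H19 spread within each diet.

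For the comparison of the diets, 4599 lincRNA probes (28.3%) passed the filter on dim probes, among 27590 probes of all kinds. That filter kept a probe if all 3 hearts of ND, or all 3 of HFD, were above background. ND alone admitted 129 of the members and HFD alone 491, and those had to differ in brightness to some degree. An unadjusted p below 0.05 was found for 469 members (10.2%), where 11.7% of all tested probes had one. They were 239 higher in HFD (5.20% of the tested members, background 5.37%) and 230 lower (5.0%, background 6.36%), from 388 combinations of region and strand. With an alternative background correction (normexp) these were 132 higher and 223 lower. The hearts of the diets did not overlap for 675 members (14.7%), against 18.9% of all tested probes. No member passed the adjustment in limma (lowest adjusted p 0.0787), where 0.0145% of all tested probes did. The methods' t-test, on the same values, called 333 members at p below 0.05 and 0 after Benjamini-Hochberg adjustment. Modelling the variance with an intensity trend and robust estimates called 4 members after adjustment, all in the overlapping chromosome 10 regions described below. Some of these 4 share bases. Normexp called 1, also there.

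Differences of at least 2-fold at an unadjusted p below 0.05 were found for 36 members (0.783%), against 0.613% of all tested probes. They were 21 higher (0.457%, background 0.319%) and 15 lower (0.326%, background 0.294%) and came from 31 combinations of region and strand. The hearts did not overlap for 34 of the 36. The dimmer diet was above background on all 3 arrays for 11 of them, on 1 or 2 for 11 and on none for 14. The count rested on dim probes: it was 11 (4 higher, 7 lower) among probes above background on all 6 arrays, 222 without a filter and 0 with normexp, which adds an offset of 50 to each intensity. It was 27 (13 higher, 14 lower) after quantile normalization and 87 (32 higher, 55 lower) with the slide row as a term. Leaving out ND 2, ND 3, HFD 1, HFD 2 or HFD 3 raised it to 65, 82, 68, 63 and 56.

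The median log2 difference of the tested members was 0.01, and the middle of the range ran from -0.13 to 0.16 (quartiles), against -0.11 to 0.11 for all tested probes. Spread between hearts was wider at low levels. The median SD within a diet was 0.0991 for lincRNA probes at a level above 2 and 0.276 for those between -4 and -3. For mRNA probes of the same levels it was 0.0874 and 0.251.

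**Figure D4:**
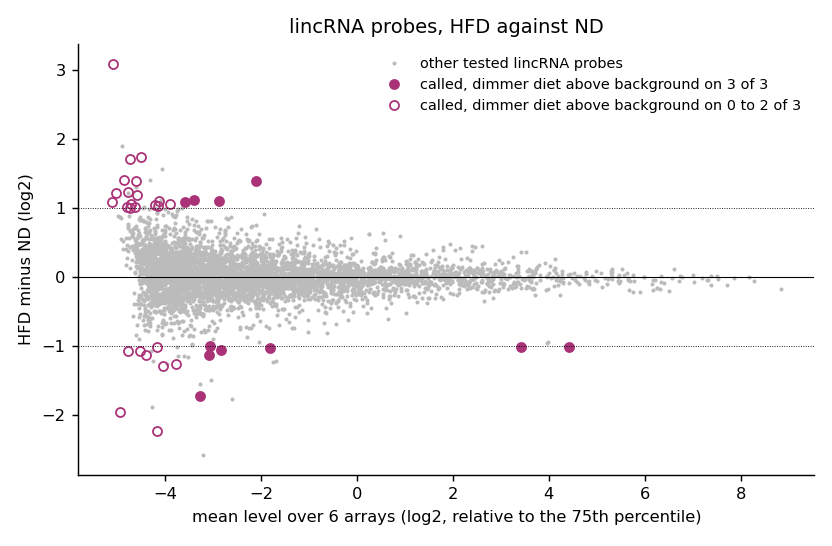
Difference between the diets (HFD minus ND, log2) of the 4599 tested lincRNA probes against their mean level over 6 arrays (log2 relative to the 75th percentile of the array). Large symbols are the 36 probes with an unadjusted p below 0.05 and a difference of at least 2-fold, filled where the dimmer diet was above background on 3 of 3 arrays. Of the 36, 2 lie at levels above 2 (both of NEAT1), and the other 34 lie below 0.

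Among members with an unadjusted p below 0.05, at least 2-fold and with no overlap of the diets, A_30_P01019993 had the largest fitted increase, in the region chr19:44651000-44651447 on the minus strand. It lies 1.16 kb from a probe on the opposite strand for Hif1an, the hydroxylase that inhibits the hypoxia factor HIF. Its intensities stood at 6.35, 3.71 and 4.73 in ND, none of them above background, and 95, 27.0 and 30.2 in HFD. HFD 1 was the highest, and all HFD hearts exceeded the ND hearts. Each ND value was raised to the dimmest signal above background on its array where it lay below that signal. Against this limit the HFD mean was 2.24-fold higher. Some spots brighter than the dimmest signal still count as at background, so the fold is not a strict minimum. The probe entered the test through HFD alone (limma adjusted p = 0.142), and the size of its fitted difference rests on ND values at background. Of the 3 probes of its region, the other 2 were above background on no array. Hif1an differed by 0.03 ± 0.07 (SE, adjusted p = 0.889).

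Other increases shared that shape. A_30_P01033629, in chr13:64044376-64045368 on the minus strand, had intensities of 14.4, 15.9 and 6.92 in ND and 34.8, 57.7 and 32.6 in HFD. Against the same kind of ND limit it was 2.05-fold higher. In its region too, 2 of 3 probes were above background on no array. A_30_P01028414, in chr5:107504871-107507830 on the plus strand, read 4.72, 15.7 and 13.2 in ND and 34.2, 38.7 and 29.3 in HFD, 1.73-fold higher against that limit. That region lies 28.4 kb from a probe for Tgfbr3, the TGF-beta co-receptor betaglycan, which differed by 0.06 ± 0.07 (SE, limma adjusted p = 0.777). Members 27.6 kb from a probe for Bcl6, a transcriptional repressor, and 72.0 kb from one for Fabp5, a fatty acid-binding protein, both on the opposite strand, were also among the 10 largest increases. The lincRNA probe near Fabp5 was above background in every heart, with levels of -2.55, -4.01 and -1.87 in ND and -1.75, -1.0 and -1.49 in HFD. Its HFD hearts exceeded the ND hearts by 1.4 ± 0.55 (SE, limma adjusted p = 0.412), while Fabp5 differed by 0.08 ± 0.09 (adjusted p = 0.800) and Bcl6 by 0.18 ± 0.16. The unadjusted p of the probe near Fabp5 rose above 0.05 without ND 1 or any 1 of the HFD hearts.

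The largest decreases chosen the same way were likewise faint. In the region chr4:123361002-123364781 on the minus strand, 28.9 kb from a probe for Ndufs5, a subunit of respiratory complex I, both A_30_P01032601 and A_30_P01025340 were lower in HFD. The first read -3.88, -4.21 and -3.84 in ND and -6.33, -6.92 and -4.52 in HFD, and the second -3.34, -3.18 and -3.66 in ND and -5.30, -4.61 and -4.12 in HFD. Each was above background in 1 of 3 HFD hearts and entered the test through ND alone, and neither set overlapped. The fitted differences, -1.95 ± 0.60 and -1.29 ± 0.31 (SE, limma adjusted p = 0.322 and 0.254), thus rest in part on HFD values at background. They were -0.54 and -0.73 in the fit with slide row. The remaining tested probe of the region went the other way, by 0.32 (limma adjusted p = 0.783). Ndufs5 differed by -0.13 ± 0.09. A_30_P01022886, in chr7:26227170-26234328 on the minus strand and above background in every heart, read -3.01, -3.19 and -1.02 in ND and -4.0, -3.87 and -4.50 in HFD. ND 3 set its mean apart, and the difference was -1.72 ± 0.59 (SE, limma adjusted p = 0.362). Without ND 3 it was -1.02. All 3 probes of its region were above background on all 6 arrays. Their differences ran from -1.72 to 0.02, and 1 of the 3 had an unadjusted p below 0.05. The unadjusted p of A_30_P01022886 rose above 0.05 without any 1 of the HFD hearts, and that of A_30_P01032601 without ND 3 or HFD 1.

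Of the 20 probes named as the 10 largest differences each way, 13 had a RefSeq mRNA probe with a gene name within 100 kb. That probe was tested for 11 of the 13, and the lowest adjusted p among them was 0.514 (limma). Over the 2607 lincRNA probes detected on all 6 arrays with such a neighbour, the differences of member and neighbour had a Spearman's rho of 0.13 across pairs, 0.13 also on either strand alone. The pairs share the 6 arrays.

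The lowest p belonged to A_30_P01027967, in chr17:88890039-88905680 on the plus strand. It read -4.46, -4.55 and -4.46 in ND and -3.35, -3.51 and -3.67 in HFD, so that the gap between the diets was wide beside the spread within them. It was higher in HFD by 0.98 ± 0.10 (SE, limma unadjusted p = 5.93e-05, adjusted p = 0.0787), and by 0.30 with normexp. It was above background in 2 of 3 ND hearts and so entered the test through HFD alone. Of the 5 probes of its region, the other 4 were above background on no array. Foxn2, a forkhead transcription factor 16.3 kb away on the same strand, differed by 0.26 ± 0.10 (SE, adjusted p = 0.406). A_30_P01032120, in chrX:50407969-50410370 on the minus strand, was above background in no ND heart and all HFD hearts, and 1.66-fold higher against the ND limit used above. It too entered the test through HFD alone (limma adjusted p = 0.0888).

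Regions read by several probes allow the same difference to be seen more than 1 time. Of 1121 combinations of region and strand with at least 2 tested probes, 22 had every tested probe at an unadjusted p below 0.05 in the same direction, 13 higher and 9 lower in HFD. In 11 of the 22, at least 3 probes did so. They were the 5 probes of NEAT1 and the 5 of chr10:69669025-69686275, 4 of chr3:40439525-40509975, and 3 each of 8 more regions. Intu, on the same strand 201 bases from a chr3 probe, differed by -0.35 ± 0.09 (SE, limma adjusted p = 0.254). Frmd8, the mRNA nearest NEAT1, differed by 0.07 ± 0.08 (adjusted p = 0.793). The overlapping chromosome 10 regions described below are counted separately among the 22. The counts are a description, without a matching share over other probes of the array.

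The chromosome 10 region, on the plus strand, contains other probes of the array, named 2310015B20Rik, and its probe A_30_P01032544 lies 27.0 kb from one for Ccdc6, a coiled-coil protein. Its 5 probes averaged 0.00, -0.17 and -0.07 in ND and 0.45, 0.57 and 0.44 in HFD, without overlap and with an SD of 0.09 and 0.08. The mean HFD level was 1.48 times that in ND (exact permutation p = 0.10, n = 3 each). The 5 differences ran from 0.53 to 0.62 (limma adjusted p from 0.0914 to 0.243). The overlapping region chr10:69679644-69682458 had 2 probes above background, with differences of 0.62 and 0.63, and 1 probe above background on no array. A_30_P01032544 and A_30_P01029918, which share 49 bases, gave 0.60 ± 0.08 and 0.63 ± 0.09. A_30_P01019232 (chr10:69682391-69682450), the other probe of the overlapping region, shares bases with A_30_P01017637 (chr10:69682402-69682461). The 2 are thus not separate readings from the 5. Ccdc6 differed by -0.05 ± 0.08 (SE, limma adjusted p = 0.841). When slide row entered the fit, the mean difference of the 5 was 0.52, and 1 of the 5 had an unadjusted p of 0.0568.

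Among the lower regions without a gene name, chr5:22887983-22939658 on the minus strand had the largest difference. Its 2 tested probes averaged -2.22, -2.63 and -2.79 in ND and -3.64, -3.50 and -3.67 in HFD, and the mean ND level was 2.09 times that in HFD (limma adjusted p from 0.135 to 0.148). They kept an unadjusted p below 0.05 in all 17 alternatives. The 2 probes overlap on their strand (chr5:22890040-22890099 and chr5:22890069-22890128), so they read shared bases and are not separate readings. Its probe A_30_P01029305 is the one with the repeated run of 19 bases, and other probes inside the region are named 5031425E22Rik. Next came chr4:119963954-119976499 on the plus strand, with -2.51, -2.24 and -2.28 in ND and -2.70, -3.32 and -3.30 in HFD. Then followed chr2:77152807-77155092 on the minus strand, whose 3 probes averaged 0.45, 0.13 and -0.08 in ND and -0.27, -0.44 and -0.73 in HFD. These diets did not overlap, with ND 1.70 and 1.57 times HFD. Foxo6, 35.4 kb from the chr4 region's nearest probe on the opposite strand, was higher in HFD by 0.96 ± 0.25 (SE, limma adjusted p = 0.271). Zfp385b, 93.8 kb from the chr2 region's nearest probe on the same strand, was higher by 0.34 ± 0.16 (adjusted p = 0.489). At least 1 probe of the chr4 region lost an unadjusted p below 0.05 without ND 2, ND 3, HFD 2 or HFD 3. The same held with the methods' t-test and with a replicate block. In the chr2 region this was so without ND 1, ND 2 or HFD 3 and with the methods' t-test.

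Among the higher regions, chr5:107504871-107507830 had 2 tested probes above background in no ND heart, 1.73-fold and 1.79-fold higher against the ND limit used above. Others were measured in every heart, among them chr14:79311982-79334451 and chr13:113555055-113564665, both on the plus strand and with 3 of 3 probes on all 6 arrays. The first averaged -1.45, -1.5 and -1.47 in ND and -1.13, -0.66 and -0.84 in HFD, and the second -1.81, -1.96 and -2.02 in ND and -1.65, -1.24 and -1.29 in HFD. Their mean HFD levels were 1.51 and 1.45 times those in ND. A probe for 1300010F03Rik, 15.7 kb from the first region's nearest probe on the same strand, differed by 0.66 ± 0.11 (SE, limma adjusted p = 0.148). One for Slc38a9, 35.7 kb from the second, differed by -0.09 ± 0.12 (adjusted p = 0.813). All 3 probes of the second kept an unadjusted p below 0.05 in all 17 alternatives, and those of the first in 13 of 17. The first lost it with the slide row as a term, with a replicate block, without ND 2 and without HFD 2.

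Neighbouring probes of a region were compared with each other. For 1779 pairs of neighbouring probes of a region, both above background on all 6 arrays, the differences between the diets had a Spearman's rho of 0.40 across pairs and the levels one of 0.56. Pairs less than 1 kb apart had 0.44 (1553 pairs), and those farther apart 0.16 (226 pairs). Pairs share arrays, labelling and often a transcript. Of the 164 pairs whose first probe had an unadjusted p below 0.05, the next probe had the same sign in 133 and such a p as well in 53.

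Among all 2210 pairs of neighbouring tested probes, detected on all 6 arrays or not, 4 had both probes at an unadjusted p below 0.05 in opposite directions. One of them is the pair of abutting chromosome 6 probes, in chr6:134838675-134847075 and 26.7 kb from a probe for the orphan receptor Gpr19. A_30_P01030333 read -2.65, -3.58 and -2.95 in ND and -3.62, -6.18 and -6.05 in HFD, and A_30_P01027725, starting at the next base, read -4.34, -3.42 and -4.13 in ND and -2.87, -2.79 and -2.87 in HFD. The first was above background in 1 of 3 HFD hearts and entered the test through ND alone, and the second was above background in every heart. In the first, HFD 1 stood close to the ND hearts, while in the second the HFD hearts lay close together. The second was higher by 1.12 ± 0.23 (SE, limma adjusted p = 0.216), and the fitted difference of the first, -2.23 ± 0.72 (SE, adjusted p = 0.338), rests in part on HFD values at background. Gpr19 differed by -0.01 ± 0.09. The second kept an unadjusted p below 0.05 in all 17 alternatives, and the first lost it in 5, among them leaving out ND 1, ND 3, HFD 2 or HFD 3.

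**Figure D5:**
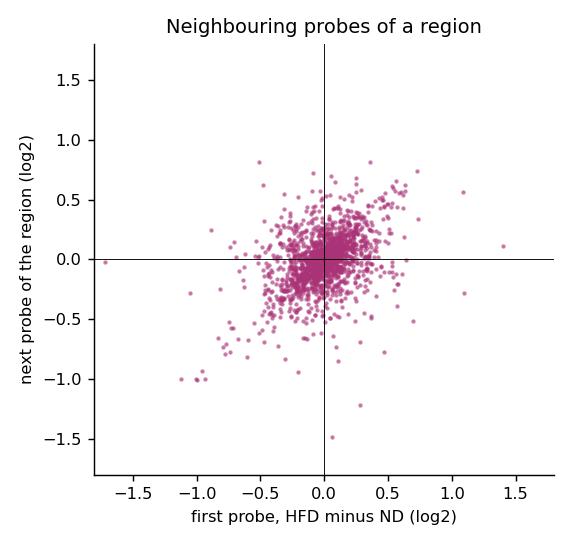
Difference between the diets (HFD minus ND, log2) of a lincRNA probe against that of the next tested probe of the same region and strand, for the 1779 pairs with both probes above background on all 6 arrays. The points cluster around 0 and scatter widely, with a Spearman's rho of 0.40.

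Markers of other cell types and states were read on the same arrays. Of the erythroid genes, 7 of 7 tested had a lower level in HFD, 6 at an unadjusted p below 0.05, and their summed level (log2) lay between 9.30 and 9.66 in ND and between 8.66 and 9.13 in HFD. Genes that respond to handling or time of day had 4 of 7 higher and 1 lower at that p, with a summed level of 5.67 to 5.76 in ND and 6.09 to 6.85 in HFD. The summed skeletal muscle level also fell apart by diet, at 6.45 to 6.76 in ND and 5.53 to 6.02 in HFD, with 2 genes tested. The part of these in the differences above was not tested. Atrial genes varied most, with summed levels of 7.64 to 9.94 in ND and 5.82 to 10.2 in HFD, and so did those of white adipocytes, with 1.63 to 2.80 in ND and -1.55 to 2.81 in HFD. Neither list had a gene at an unadjusted p below 0.05 (4 and 5 tested). The summed levels of heart muscle, nerve and glia, macrophages, endothelium and fibroblasts overlapped between the diets, with 1 gene lower at that p in each of the last 3 and none in the first 2.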

How the data were processed

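Total RNA of 6 hearts was hybridised to 1-colour Agilent mouse arrays, and the authors scanned them and extracted spots with Feature Extraction 10.7, per the labels. The deposited scanner files hold a background-subtracted intensity per spot, which was used here, with positions on mm9. The authors also deposited a log2 table, which matched quantile normalization of these intensities and served as an alternative. Raw scanner files thus gave the main values. Samples were grouped by the labels.

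Outlier spots were left out, spots of a probe averaged, and log2 intensities set relative to the 75th percentile of each array, an intensity between 451 and 540. The number of arrays limits precision. Probes with all 3 hearts of either diet above background were fitted across the whole array in R 4.3.3 with limma 3.58.1 (lmFit, eBayes, two-sided) and adjusted by Benjamini-Hochberg over 27590 probes. The fit was tested on simulated data. Single values were compared by exact two-sided permutation. The labels call the hearts separate samples of a group, and p-values measure the spread between them. The study's methods used a t-test, given as an alternative. Other alternatives were quantile normalization, normexp, other filters, variance models, array weights, slide row, replicate block and leaving out each heart.

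Named members were the 10 largest increases and the 10 largest decreases at an unadjusted p below 0.05, at least 2-fold and with no overlap of the diets, the 5 lowest p, members with gene names, the 10 brightest regions, the 5 regions brightest on both strands, and regions whose tested probes agreed. Members, marker lists and rules were chosen with earlier results of these data known. Neighbouring genes were the nearest RefSeq mRNA probes of the array within 100 kb.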

Additional observations from a re-analysis of the deposited data

How the results depend on the processing

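The count of members past the adjustment was 0 by limma, 469 having an unadjusted p below 0.05, and became 1 with normexp and 4 when variances followed an intensity trend robustly. Leaving out 1 heart gave 0 to 1, the 1 (without ND 3) being A_30_P01030150, which the main filter left untested. The count at 2-fold, 36, became 0 with normexp, 222 without a filter on dim probes, 11 among probes above background on all 6 arrays, 87 with the slide row as a term, and 37 to 82 when 1 heart was left out. Fewer probes pass the stricter filter, and the other causes were not tested. The count at an unadjusted p below 0.05 ran from 333 with the methods' t-test to 832 without a filter, where 16251 were tested. The median difference of 0.01 became -0.057 without a filter, and was also below 0 with normexp (-0.014), slide row (-0.011), array weights (-0.0091), the filter on all 6 arrays (-0.0016), and without ND 3 (-0.022) or HFD 2 (-0.014). The lincRNA median minus the mRNA median, -3.18 over the 6 arrays, was -2.40 with normexp, -4.48 over all probes detected or not, and -2.82 over probes above background on all 6 arrays, a setting chosen after seeing the data. The balance of higher and lower at 2-fold, 21 and 15, was 4 and 7 on all 6 arrays and 32 and 55 with the slide row. Hearts with the same number deviated with correlations of -0.15, 0.15 and 0.19, so the numbers do not pair them. With a replicate block 546 members had an unadjusted p below 0.05, 38 of them at 2-fold, and 0 passed the adjustment. Of the 87 named members followed, 49 lost an unadjusted p below 0.05 with the slide row as a term and 0 to 25 under each other setting. Dim signal limits most members: 57.1% were at background on every array, where a difference is not detectable.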
